A study of Mus musculus with 12 samples.

Results

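The genes described here are the splicing factor genes of mouse germ cells: rows whose symbol begins with Srsf and a digit, Hnrnp or Hnrp, Sf3a or Sf3b and a digit, Snrp, or U2af. Snrpn, an imprinted gene that also matches, was left out. The rule found 53 of the 26218 gene rows: 11 SR proteins, 20 heterogeneous nuclear ribonucleoproteins (hnRNPs), 3 genes of the U2AF family, 8 subunits of SF3a and SF3b, and 11 proteins of the small nuclear ribonucleoproteins (snRNPs). Genes named Snrnp, such as Snrnp70, fall outside the rule and were counted among other splicing genes. The rule reads symbols and no measured value, though it was set with earlier results of these data known. They lie on 17 autosomes and, for Hnrnph2, on chromosome X.

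Splicing removes introns from a transcript in a large machine, the spliceosome. The U1 snRNP pairs with the start of an intron, U2AF binds the pyrimidine tract near its end, and U2AF in turn helps the U2 snRNP, of which SF3a and SF3b are parts, to settle at the branch point. Every snRNP of this kind except U6 carries a ring of Sm proteins, encoded by Snrpb, Snrpd1, Snrpd2, Snrpd3, Snrpe, Snrpf and Snrpg. SR proteins and hnRNPs bind the transcript itself and shift the choice of exons, often in opposite directions, and both classes are abundant in dividing cells. Many of them limit their own amount through exons that send their messenger RNA to decay, which a count of reads per gene does not separate.

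RNA was read at its 3′ end in 12 mouse libraries, 2 for each of 6 groups. The culture groups were primordial germ cell-like cells (PGCLCs), germ cells made in a dish: C57BL/6 stem cells with the Blimp1-mVenus and Stella-ECFP reporters (BVSC) passed through an epiblast-like state and were induced for 4 days. The cells were then sorted on the Blimp1-mVenus signal (BV), grown on the feeder subline m220-5, sorted again and taken after 3, 5 or 7 days of culture (d4c3, d4c5 and d4c7). The embryonic groups came from embryos with an ICR and C57BL/6 background and the Stella-EGFP reporter (SG), whose SG-positive cells were primordial germ cells at embryonic day (E) 9.5 and male or female germ cells at E12.5. RNA input was 10 ng for each culture library and 1 ng for each embryonic one. The sex of the E9.5 cells and of the stem cells was not given in the sources used here, and nothing says that libraries of a group came from separate cultures or embryos, so the p-values speak of the spread among these libraries, which may be technical.

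Reads in genes, estimated from the smallest steps between values, numbered 2218989 to 5816573 per library, so that a value of 0 allows up to 3 reads, or 0.517 to 1.36 RPM (reads scaled to a common total of reads in genes), counting error only. All 10 germ cell identity genes, among them Ddx4 and Dppa3, averaged above 1 RPM in every group, and their sum was 2629 to 3316 RPM in culture, 3590 and 3615 at E9.5 and 5961 to 7660 at E12.5. The libraries of E9.5 stood apart in blood genes: 13 markers of blood and endothelium summed to 4153 and 4679 RPM there and to 59.7 to 171 in the other 10 libraries, with the embryonic globin Hbb-y at 1865 and 1669 RPM at E9.5, at 0 in all culture libraries and at most 10.3 at E12.5. The endothelial genes of that list did not move together: Pecam1, which germ cells also express, was at 48.3 to 151 RPM in all libraries, Tek at 9.78 to 24.8 in culture and 1.18 to 2.50 in the embryo, Kdr (3.68 and 2.36) and Tie1 (1.47 and 3.07) were seen at E9.5 and were under 1 RPM elsewhere, and Cdh5 was at 0 throughout. The 13 markers of fibroblasts and stroma summed to 456 to 712 RPM in culture, 664 and 703 at E9.5 and 374 to 452 at E12.5, sums carried by Fn1 and Sparc. Most of the other stromal markers set E9.5 apart, with Twist1 at 38.6 and 39.9 RPM there and at most 2.75 elsewhere, Pdgfra at 16.5 and 15.6 against at most 1.26, and Postn at 12.9 and 10.6 against at most 0.444. Dcn and Col3a1 reached 39.7 RPM each in d4c5 replicate 1, against 1.36 and 0.904 in replicate 2. The 12 markers of gonadal somatic cells summed to 29.9 to 52.2 RPM over all libraries, a sum that hides opposite moves. Of the 3 tested, 1 was called higher and 1 lower in each comparison between embryonic groups and in culture against embryo.

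All 53 genes had at least 5 RPM in at least 2 libraries and were tested, 2 of them (Srsf12 and Hnrnpul1) through their E12.5 values, so that a higher level at E12.5 was favoured by the way they entered the test. Together they took 1.80% to 2.23% of the reads in genes. Their summed level was 21665 ± 963 RPM (SD, n = 2) in d4c3, 21156 ± 622 in d4c5, 19966 ± 1189 in d4c7, 21743 ± 33.8 at E9.5, 18570 ± 449.9 in E12.5 males and 18190 ± 224 in E12.5 females. The 4 libraries of E12.5 therefore lay below the other 8. These sums are shares of the reads, and in bulk RNA fewer cells of a type and less RNA per cell cannot be told apart.

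The classes did not follow the sum in the same way. Genes of SR proteins summed to 4042 to 4996 RPM in culture, 4031 and 4149 at E9.5 and 3231 to 3555 at E12.5. The snRNP protein genes summed to 5386 and 5403 RPM at E9.5, above the 4045 to 4607 of the other 10 libraries. The SF3a and SF3b genes were instead highest in E12.5 males, at 1725 and 1670 RPM against 1321 to 1522 elsewhere. For hnRNP genes, the E12.5 libraries held 8580 to 8956 RPM and the other 8 held 9345 to 11021.

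**Figure D1:**
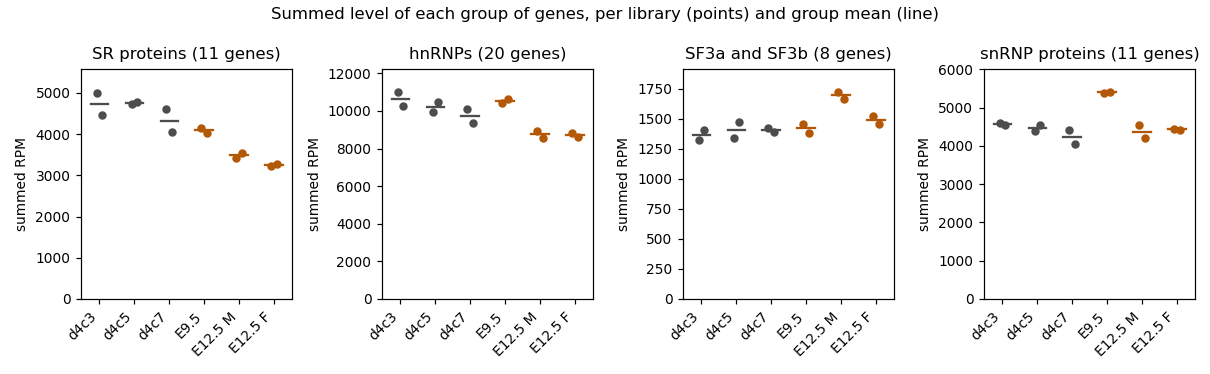
Summed RPM (y axis, from 0) of the SR protein, hnRNP, SF3a and SF3b, and snRNP protein genes in each library (points) with the mean of each group (line), culture in grey and embryo in orange. The snRNP protein genes were highest at E9.5 (5386 and 5403 RPM), the SF3a and SF3b genes in E12.5 males (1725 and 1670 RPM), and the SR protein genes lowest at E12.5 (3231 to 3555 RPM).

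Single members varied less between groups than most genes. The fold between the highest and the lowest group mean, taken on the log2(RPM + 1) scale, had a median of 1.49 over the 53 genes, beside 1.97 over all 10856 genes tested. Among genes averaging at least 50 RPM, a level that 47 members reached, the medians were 1.42 and 1.64. Replicates of the members were also closer, with a median within-group SD of 0.121 on the log2 scale, beside 0.235 over all genes. At 50 RPM or more these medians were 0.112 and 0.142. The part of replicate spread in the smaller span was not tested. A span of at least 2-fold was seen in 8 of the 53 members, beside 5257 of the 10856 genes tested. The 8 were Srsf12 (10.9), Hnrnpul1 (4.21), Srsf5 (2.40), Srsf9 (2.31), Sf3a2 (2.24), Srsf2 (2.11), Hnrnpd (2.11) and U2af2 (2.05). Hnrnpr, an hnRNP of the Syncrip type, spanned the least, 1.13-fold, between 199.6 and 239 RPM in single libraries.

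The share of members called as differing among the 6 groups was near that of all genes. In limma's moderated F-test, 34 of 53 (64.2%) had an adjusted p under 0.05, beside 63.8% of all genes tested. By class these were 8 of 11 SR proteins, 11 of 20 hnRNPs, 2 of 3 U2AF genes, 5 of 8 SF3a and SF3b subunits and 8 of 11 snRNP proteins. E9.5 was the highest group for 20 members and the lowest for 3, whereas E12.5 females were the highest for 9 and the lowest for 16. Of the culture groups, d4c3 was the highest for 9 and d4c7 for 1, while d4c7 was the lowest for 11. The highest and lowest groups were not counted over all genes, so whether these counts are particular to the members is not known.

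**Figure D2:**
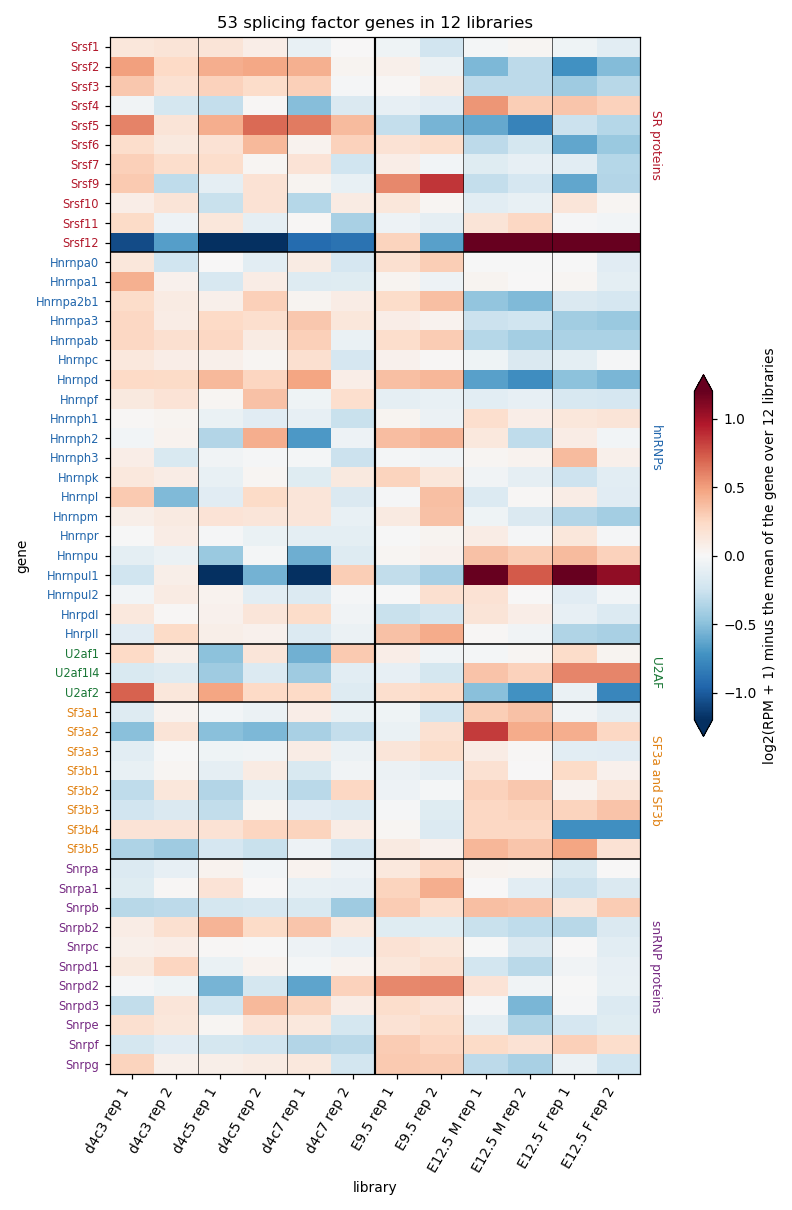
Each of the 53 genes (rows, by class) in each of the 12 libraries (columns), coloured by log2(RPM + 1) minus the mean of that gene over the libraries. Srsf12 stands out in the 4 libraries of E12.5, Srsf5 in the 6 culture libraries, and Sf3b4 is low in both libraries of E12.5 females.

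The upstream sequence of 4 members is printed because results below turn on them and their window lies outside annotated exons of the gene: Srsf9, Srsf6 and Hnrnpab, lower at E12.5 than at E9.5 in both sexes, and Srsf5, higher in culture than in the embryo. Each holds up to 250 bases before the transcription start, read 5′ to 3′ on the gene's strand, taken from RefSeq (GRCm38.p6, the build called mm10), without the last bases where these fall inside the annotated gene. Capitals mark matches to a CCAAT box (CCAAT), a GC box (GGGCGG) or an ETS motif (CCGGAAG), searched on both strands. The windows are chr5:115326927-115327162 for Srsf9, chr2:162931258-162931507 for Srsf6 and chr12:80945249-80945494 for Srsf5, all on the plus strand, and chr11:51606882-51607131 on the minus strand for Hnrnpab.
Srsf9 promoter: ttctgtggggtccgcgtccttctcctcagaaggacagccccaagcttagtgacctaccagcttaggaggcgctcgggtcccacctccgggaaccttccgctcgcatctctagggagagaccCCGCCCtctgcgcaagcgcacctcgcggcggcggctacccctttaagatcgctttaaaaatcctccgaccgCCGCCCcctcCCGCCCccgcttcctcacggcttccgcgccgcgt
Srsf6 promoter: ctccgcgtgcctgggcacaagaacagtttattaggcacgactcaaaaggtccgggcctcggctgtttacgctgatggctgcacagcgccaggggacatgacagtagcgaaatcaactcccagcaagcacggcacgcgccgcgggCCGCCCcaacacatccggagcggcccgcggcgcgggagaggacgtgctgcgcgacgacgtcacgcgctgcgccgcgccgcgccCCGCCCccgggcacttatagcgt
Hnrnpab promoter: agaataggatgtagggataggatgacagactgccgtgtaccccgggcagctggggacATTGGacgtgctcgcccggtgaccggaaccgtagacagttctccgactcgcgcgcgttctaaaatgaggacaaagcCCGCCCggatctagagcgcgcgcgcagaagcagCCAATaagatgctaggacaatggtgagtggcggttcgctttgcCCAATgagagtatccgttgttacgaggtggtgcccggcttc
Srsf5 promoter: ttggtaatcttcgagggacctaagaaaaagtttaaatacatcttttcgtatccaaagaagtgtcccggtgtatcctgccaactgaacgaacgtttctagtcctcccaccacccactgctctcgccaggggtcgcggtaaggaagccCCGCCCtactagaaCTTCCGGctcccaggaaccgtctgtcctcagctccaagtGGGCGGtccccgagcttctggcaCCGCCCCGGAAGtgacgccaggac
Srsf9 held 3 GC boxes and Srsf6 held 2, with no other match. Hnrnpab held 3 CCAAT boxes and 1 GC box. Srsf5 held 3 GC boxes and 2 ETS motifs, of which 1 GC box and 1 ETS motif share 1 base. The 3 genes that were lower at E12.5 share the GC box, which Srsf5 holds too. A match describes letters, not a bound factor.

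Over the 46 members with a promoter in the table (the first entry where there were several), the 250 bases upstream had a median GC content of 60.6%, beside 52.4% over all 32851 promoters of the same length, and a median ratio of observed to expected CpG of 0.919 beside 0.373. The GC box was present in 69.6% of members and 32.7% of all promoters. An ETS motif was present in 30.4% and 6.91%, a CCAAT box in 45.7% and 33.8%, and an E-box (CACGTG) in 6.52% and 6.02%. The cyclic AMP response element TGACGTCA was found in 4.35% and 1.55%, namely in Snrpa and Snrpg. The motifs of NRF1 and YY1 were in no member's window and in 0.782% and 0.301% of all. Shares of short GC-rich letters move with base composition, and no test was made. Hnrnpul2, Hnrpll, Sf3b4, Sf3b5, Snrpb, Snrpd1 and U2af2 had no entry.

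Levels over the days of expansion were compared as d4c7 with d4c3 and d4c5 with d4c3, which share the d4c3 libraries. No member passed limma's test between d4c7 and d4c3, where 2.75% of all genes did (1.67% higher and 1.08% lower in d4c7), and 4 members (Hnrnpa1, Hnrnph1, Sf3b5, Srsf7) had an unadjusted p under 0.05, as did 16.6% of all genes. Between d4c5 and d4c3 none passed either, beside 0.0829% of all genes (0.0645% higher and 0.0184% lower in d4c5), and 1 (Hnrnpa1) had an unadjusted p under 0.05, as did 8.91% of all genes. The median difference of the members was -0.11 on the log2 scale from d4c3 to d4c7, beside 0.02 over all genes, and -0.01 from d4c3 to d4c5, beside 0.01. Replicates of d4c7 were the least alike of any group, with a root mean square difference of 0.429 over the members, against 0.163 in E12.5 females.

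The largest differences between d4c7 and d4c3 were in 4 genes. Hnrnpa1, an abundant hnRNP that represses exons, was at 1927 and 1482 RPM in d4c3 and 1284 and 1296 in d4c7, a log2 difference of -0.39 ± 0.12 (SE; limma adjusted p = 0.120). The d4c3 libraries differ from each other by more than the lower of them does from d4c7. U2af2, the large subunit of U2AF, was at 235 and 158 RPM in d4c3 and 170.4 and 129 in d4c7, a difference of -0.38 ± 0.22 (limma adjusted p = 0.422). Hnrnph2, the X-linked relative of Hnrnph1, was at 32.2 and 33.9 RPM in d4c3 and 20.0 and 31.4 in d4c7. Hnrnpul1 was near the limit of detection in culture, at 1.96 and 2.66 RPM in d4c3, 0.390 and 1.36 in d4c5 and 0 and 3.27 in d4c7, and its difference between d4c7 and d4c3 of -0.67 on the log2 scale (limma adjusted p = 0.588) turned to 0.38 without d4c7 replicate 1.

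From d4c3 to d4c5 the largest differences were in Hnrnpul1 and 3 more genes. Srsf12 was at 2.74 and 3.99 RPM in d4c3 and 1.56 and 1.81 in d4c5. Snrpd2, an Sm protein, was at 285 and 278 RPM in d4c3 and 195 and 248 in d4c5. Sf3a2, an SF3a subunit, was at 14.9 and 24.0 RPM in d4c3 and 14.8 and 14.5 in d4c5. The limma adjusted p of the 4 genes ran from 0.583 to 0.726. A single library decided some calls between d4c7 and d4c3. Without d4c7 replicate 2, the members that passed were Snrpd2 (-0.60), U2af1 (-0.73), Hnrnpu (-0.49) and Hnrnpul1 (-1.72), all lower in d4c7. Without d4c3 replicate 2 it was Hnrnpa1 (-0.58), and without d4c7 replicate 1 it was Srsf7 (-0.49). Each such fit leaves 1 library in a group, and shares of all genes called there are not given.

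U2af1 shows how these libraries differ. It encodes the small subunit of U2AF, which reads the AG at the end of the intron. Its level was 129 and 114 RPM in d4c3, 76.9 and 121 in d4c5, 72.7 and 135 in d4c7, 115 and 105 at E9.5, 107 and 110.2 in E12.5 males and 127 and 112 in E12.5 females. In both d4c5 and d4c7 the first library was low and the second was level with all other groups, and U2af1 did not pass the test among the 6 groups (limma adjusted p = 0.711). Fn1, of the stromal list, was also low in the first libraries of d4c5 and d4c7 (171 and 113 RPM, against 397 and 417 in the second). Dcn and Col3a1 of that list went the other way in d4c5, as given above, so Fn1 does not stand for the list. The part of these markers in the U2af1 values was not tested.

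Germ cells of the gonad, at E12.5, were next compared in each sex with the migrating cells of E9.5. Both comparisons use the same E9.5 libraries, and markers of other cells separate those libraries from E12.5 as well. Of the blood and endothelium markers, 7 of 9 tested fell in each sex and 1 (Pecam1) rose in females. Of the stromal markers, 7 of 10 fell in each sex and none rose, and Afp, of the endoderm list, went from 15.8 and 20.8 RPM at E9.5 to at most 0.301. Their part in the differences was not tested. From E9.5 to E12.5 males, 7 members were higher and 15 lower by limma, 22 of 53, where 20.0% of all genes tested were higher and 17.6% lower (37.7% in all). To E12.5 females, 5 were higher and 19 lower, 24 of 53, beside 20.4% and 17.1% of all genes (37.5% in all). The median difference of the members was -0.14 on the log2 scale in males and -0.18 in females, beside 0.05 and 0.04 over all genes.

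The split of higher against lower moved with the scaling, and the male count with single libraries. When each library was centred on its median log ratio, 3 members were higher and 18 lower in males, and 4 were higher and 20 lower in females. The count was lower in both sexes without E9.5 replicate 2, and in males without either E12.5_M library, fits that leave 1 library in a group. Shares of all genes called under these alternatives are not given, so the moves are not known to be particular to the members. Hnrnpd, Hnrnpa2b1, Hnrnpab, Snrpg, Snrpd1, Srsf9 and Srsf12 kept their male call under every alternative tried, 7 of 22. In females 13 of 24 did: Srsf2, Srsf6, Srsf9, Srsf12, Hnrnpa2b1, Hnrnpa3, Hnrnpab, Hnrnpd, Hnrnpm, Hnrpll, Sf3b4, Snrpa1 and U2af1l4.

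Of the 11 SR protein genes, 2 were higher and 4 lower in each sex. The share on the higher side, 18.2%, was near that of all genes (20.0% for males, 20.4% for females). On the lower side it was 36.4%, where all genes had 17.6% for males and 17.1% for females. The class as a whole was not tested. Srsf12, a small SR protein also called SRrp35 that counters the others in splicing assays, was at 2.74 and 3.99 RPM in d4c3, 1.56 and 1.81 in d4c5 and 3.14 and 3.27 in d4c7. In the embryo its level was 8.46 and 4.01 RPM at E9.5, 21.6 and 25.6 in E12.5 males and 27.9 and 28.4 in E12.5 females. All 4 libraries of E12.5 lay above all others, and the lower E9.5 library was level with the highest of culture. Srsf12 rose by 1.83 ± 0.34 on the log2 scale in males (limma adjusted p = 8.59e-04) and by 2.08 ± 0.34 in females (3.55e-04). Because the E12.5 values brought Srsf12 past the filter, it was also tested with no filter on low values, where limma's adjusted p was 0.00505 in males and 0.00285 in females. The gene lies on chromosome 4, 33208991 to 33233343 of GRCm38.p6.

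Srsf9, also a small SR protein, went the other way. Its level was 148 and 180.0 RPM at E9.5, 81.0 and 85.8 in E12.5 males and 63.7 and 76.9 in E12.5 females. It fell in males (-0.96 ± 0.19, limma adjusted p = 0.00119) and in females (-1.21 ± 0.19, 2.41e-04). The culture libraries, from 79.8 to 123 RPM, lay below E9.5 and overlapped the males of E12.5.

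Srsf6, an SR protein that promotes exon inclusion, was at 549 and 562 RPM at E9.5, 390.4 and 419 in males and 315 and 356 in females. It fell in females (-0.73 ± 0.11, limma adjusted p = 2.11e-04) and in males (-0.46 ± 0.11, 0.00534). Srsf4, one of the larger SR proteins, was at 75.0 and 72.9 RPM at E9.5 and 117 and 99.1 in males, a rise of 0.53 ± 0.16 (limma adjusted p = 0.0158) that was lost without either E9.5 library and without E12.5_M replicate 1. The female values, 102 and 97.6 RPM, were close to those of males.

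Of the other SR genes, Srsf2 and Srsf3 were also lower at E12.5 in both sexes. Srsf2, whose end overlaps a gene on the opposite strand, went from 768 and 703 RPM at E9.5 to 508 and 590.4 in males and 443 and 514 in females. Srsf3, the smallest classical SR protein, went from 944 and 1001 RPM to 750.2 and 754 in males and 696 and 741 in females. Srsf2 differed by -0.42 in males and -0.62 in females, and Srsf3 by -0.37 and -0.44 (limma adjusted p from 0.00263 to 0.0235 over the 4 values). Members named in this way, beyond the rule for naming, were picked after their values were seen. Srsf1, Srsf5, Srsf7, Srsf10 and Srsf11 did not pass in either sex.

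Of the 20 hnRNP genes, 6 were lower and 1 higher in males (30.0% and 5.00%, beside 17.6% and 20.0% of all genes), 7 were lower and 1 higher in females (35.0% and 5.00%, beside 17.1% and 20.4%), and the others did not pass. Hnrnpd, which encodes AUF1, a protein that binds AU-rich messenger RNA, had the largest of these falls. Its level was 532 and 528 RPM in d4c3, 591 and 537 in d4c5, 627 and 475 in d4c7, 578 and 594 at E9.5, 286 and 269 in E12.5 males and 319.8 and 307 in E12.5 females. The 4 libraries of E12.5 lay below all 8 others. Against E9.5 the level was 2.11-fold lower in males and 1.87-fold lower in females. Hnrnpd fell by 1.08 ± 0.12 in males (limma adjusted p = 1.33e-05) and by 0.90 ± 0.12 in females (6.61e-05).

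Hnrnpa2b1, a core hnRNP that coats new transcripts, was at 1564 and 1721 RPM at E9.5, 964 and 928 in males and 1183 and 1166 in females. It fell by 0.79 ± 0.10 in males (limma adjusted p = 3.26e-05) and differed by -0.48 in females (0.00158). Hnrnpab, a relative of Hnrnpd, was at 1578 and 1677 RPM at E9.5, 1075 and 1026 in males and 1048 and 1047 in females. It differed by -0.63 in each sex (limma adjusted p = 5.49e-04 in males and 5.72e-04 in females). Its end overlaps a gene on the opposite strand, and whether the counting used strand was not given in the sources used here.

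Hnrpll, an hnRNP known from exon skipping in lymphocytes, stood at 103 and 109.6 RPM at E9.5, 81.3 and 77.7 in males and 62.1 and 61.1 in females. It fell by 0.78 ± 0.14 in females (limma adjusted p = 7.83e-04), and the male difference of -0.41 was lost when any of the 4 libraries compared was left out. Hnrpll in culture, from 71.5 to 94.5 RPM, lay below both E9.5 libraries. The hnRNP gene that rose in males was Hnrpdl, from 354 and 366 RPM at E9.5 to 475 and 450.1. In females it was Hnrnpul1, from 1.84 and 1.65 RPM to 6.97 and 6.29, and both calls were lost under some alternatives. Hnrnpul1 reached 5 RPM at E12.5 alone, and with no filter on low values its limma adjusted p in females was 0.128.

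Of the 11 snRNP protein genes, 4 were lower in males (36.4%, beside 17.6% of all genes), 5 were lower in females (45.5%, beside 17.1%), none was called higher and the others did not pass. Snrpg, an Sm protein, was at 1053 and 1044 RPM at E9.5, 682 and 649 in males and 807 and 716 in females. It fell in males (-0.66 ± 0.12, limma adjusted p = 6.36e-04) and in females (-0.46 ± 0.12, 0.00680). Snrpe and Snrpa1, the A′ protein of the U2 snRNP, were lower in both sexes as well, Snrpd1 in males, and Snrpa and Snrpd2 in females. Of the Sm ring, Snrpb and Snrpf did not pass in either sex. Snrpd3 and Snrpc, the C protein of the U1 snRNP, did not differ among the 6 groups by limma's F-test (adjusted p = 0.431 and 0.166).

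U2AF genes split. U2af2 was at 166 and 170.3 RPM at E9.5, 101 and 86.7 in males and 136 and 83.5 in females, where the libraries differed from each other. It differed by -0.84 ± 0.22 in males (limma adjusted p = 0.00876) and -0.65 ± 0.22 in females (0.0313). The female value was -0.31 without E12.5_F replicate 2. U2af1l4, which encodes U2AF26, a paralogue of the small subunit, was at 39.7 and 36.8 RPM at E9.5, 54.4 and 52.1 in males and 64.6 and 64.6 in females. Its rise of 0.74 ± 0.17 in females (limma adjusted p = 0.00348) held under every alternative, while that of 0.47 in males (0.0407) did not. Its end overlaps another gene on the same strand, so reads could come from either.

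**Figure D3:**
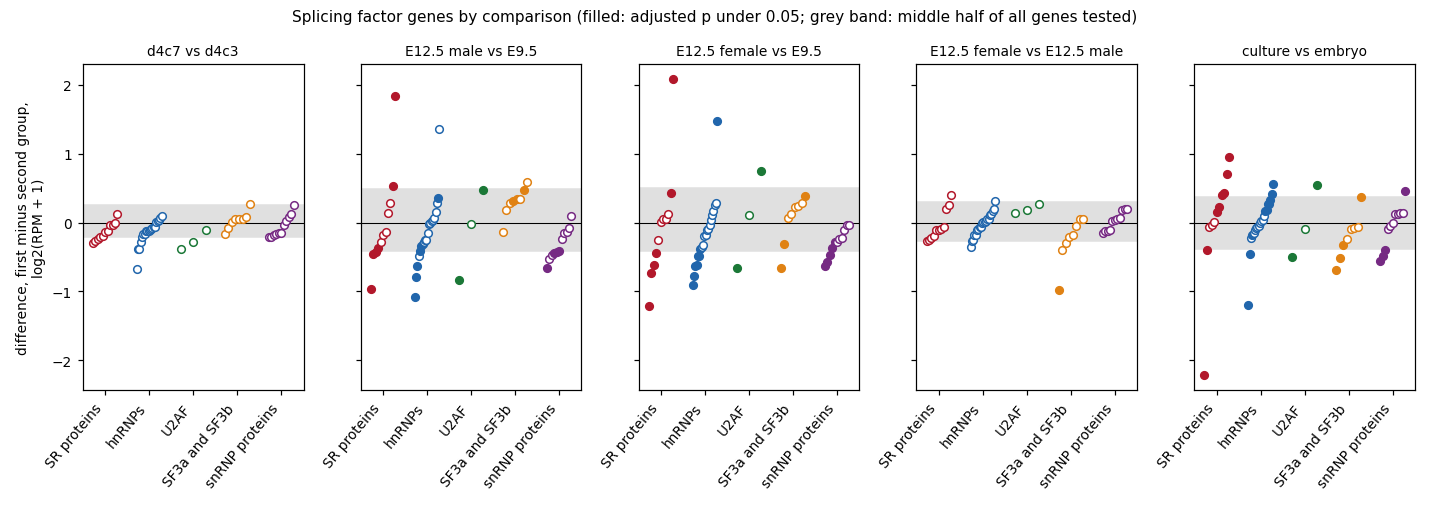
Each point is 1 member, its difference between the groups of a panel (first minus second) on the log2(RPM + 1) scale, arranged by family, with calls by limma filled and a grey band for the interquartile range of all genes tested. Against E9.5, most called members lie below 0 (15 in males and 19 in females), Srsf12 lies highest (1.83 and 2.08), and Sf3b4, the called SF3b point lowest of its family in females, is above 0 in males and below 0 in females (0.32 and -0.66).

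Of the 8 SF3a and SF3b genes, 3 passed against E9.5 in each sex, or 37.5%, which is near the 37.7% and 37.5% of all genes. In males 3 rose (Sf3b4, Sf3a1 and Sf3b3), or 37.5% beside 20.0% of all genes, and none fell, beside 17.6%. None of the 3 male calls held under every alternative. Sf3b3 and Sf3b4 lost theirs under median log ratio scaling, and all 3 did without some single libraries, fits that leave 1 library in a group. In females 1 rose (Sf3b3) and 2 fell (Sf3b4 and Sf3a3), beside 20.4% and 17.1% of all genes. Of the female calls, only that of Sf3b4 held under every alternative. Sf3b4, the SF3b subunit that touches the transcript upstream of the branch point, had its mean above E9.5 in males and below it in females.

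Between E12.5 females and males, 1 of 53 members, Sf3b4, was called by limma, beside 11.9% of all genes tested (6.68% higher and 5.27% lower in females), and 8 (15.1%) had an unadjusted p under 0.05, beside 26.0% of all genes. The level of Sf3b4 was 296 and 297 RPM in d4c3, 298 and 317 in d4c5, 318 and 280.1 in d4c7, 268 and 236 at E9.5, 314 and 313 in E12.5 males and 159 and 158 in E12.5 females. Both female libraries lay below all 10 others, and the male libraries among those of culture. The fold between the sexes was 1.98, or -0.98 ± 0.10 on the log2 scale for females minus males (limma adjusted p = 4.94e-05). From E9.5 the difference was 0.32 in males (limma adjusted p = 0.0260) and -0.66 in females (2.52e-04), and the male call was lost under median log ratio scaling and without 3 of the 4 libraries. The gene lies on chromosome 3, 96172506 to 96177564 of GRCm38.p6, and no near-identical copy of its end was found. Markers of gonadal somatic cells summed to 32.2 and 33.1 RPM in males and 46.8 and 50.2 in females, but of the 3 markers tested, 1 was called higher and 1 lower in females. Their part in the difference was not tested.

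The other named members of this comparison did not pass. Srsf5 was at 146 and 127 RPM in males and 186 and 176 in females (limma adjusted p = 0.107). Sf3a1, the large SF3a subunit, was at 128 and 133 in males and 101 and 96.3 in females (0.0548), and Hnrpll at 81.3 and 77.7 in males and 62.1 and 61.1 in females (0.115). The libraries of the sexes did not overlap in any of the 3. Such separation was common among the 53 members, with 11 wholly higher in females and 21 wholly lower (20.8% and 39.6%). It was not counted over all genes for this comparison, so it does not set the 3 genes apart. The members' median difference was -0.04, beside 0.00 over all genes.

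**Figure D4:**
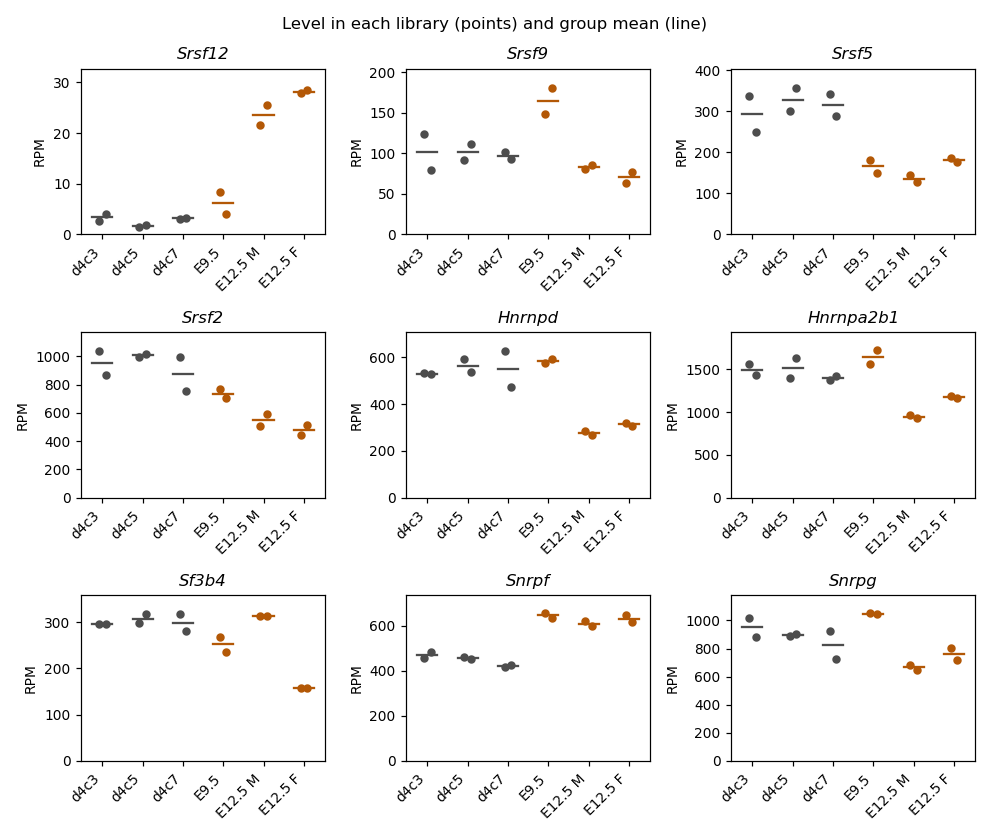
RPM in each library (points) and group means (lines) for 9 members, culture in grey and embryo in orange. Srsf12 is highest at E12.5 (21.6 to 28.4 RPM), Sf3b4 is lowest in E12.5 females (159 and 158 RPM), and Srsf5 and Snrpf separate the culture libraries from the embryonic ones.

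The last comparison set the 6 culture libraries against the 6 of the embryo. Strain, reporter, sort and RNA input differ in the same way between these sides and cannot be told apart from culture. Markers of other cells differed between the sides too, though the blood and endothelium sum was high at E9.5 alone (4153 and 4679 RPM). In E12.5 males that sum was 108 and 135 RPM, overlapping culture, which reached 111 in d4c7. Of 9 blood and endothelium markers tested, 8 were lower in culture and 1 higher, and of 10 stromal markers 4 were lower and 3 higher. Their part in the differences was not tested. By limma, 16 members were higher in culture and 12 lower, 28 of 53, where 27.7% of all genes tested were higher and 26.8% lower (54.5% in all). The median difference was -0.04 on the log2 scale, beside -0.01 over all genes. In 4 higher and 5 lower members the libraries of the sides did not overlap, beside 9.25% and 6.24% of all genes. Srsf12 is among these 5, and Srsf12 and Hnrnpul1 are among the 12 called lower. Both passed the filter through their E12.5 values, which favoured a lower level in culture. With E9.5 left out of the embryonic mean, a choice made after the data were seen, 30 members passed, of which 25 were among the 28.

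Of the 11 SR protein genes, 6 were higher in culture and 2 lower (54.5% and 18.2%, beside 27.7% and 26.8% of all genes), a count that was not tested as a class. Srsf5, an SR protein first known as an insulin-induced gene, was at 338 and 249 RPM in d4c3, 302 and 356 in d4c5 and 344 and 289.7 in d4c7. The embryonic libraries held 182 and 151 RPM at E9.5, 146 and 127 in E12.5 males and 186 and 176 in E12.5 females. The lowest culture library, at 249 RPM, lay above the highest embryonic one, at 186. Srsf5 was 1.94-fold higher in culture, 0.96 ± 0.09 on the log2 scale (limma adjusted p = 1.23e-06). It lies on chromosome 12, 80945495 to 80950507 of GRCm38.p6.

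Srsf2, which helps both exon definition and transcript elongation, had a higher mean in culture by 0.70 (limma adjusted p = 5.72e-06), but 754 RPM in d4c7 replicate 2 lay below 768 in E9.5 replicate 1. Srsf3, Srsf6, Srsf7 and Srsf1 passed on the same side with differences of 0.43, 0.41, 0.22 and 0.15, and their libraries overlapped. Srsf12 and Srsf4 were the lower ones, at -2.22 and -0.40. Because the E12.5 values brought Srsf12 past the filter, a lower level in culture was favoured, though its call was kept with no filter on low values. The calls of Srsf1 and Srsf7 were lost under several alternatives.

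Of the 11 snRNP protein genes, 3 were lower in culture and 1 higher (27.3% and 9.09%, beside 26.8% and 27.7% of all genes). The lower share was thus near that of all genes. Snrpb, which encodes the Sm proteins B and B′, was at 512 and 519.9 RPM in d4c3, 559 and 564 in d4c5 and 568 and 481 in d4c7. In the embryo it was at 797 and 745 RPM at E9.5, 830.3 and 819 in E12.5 males and 714 and 799 in E12.5 females. The difference was -0.55 ± 0.06 (limma adjusted p = 3.01e-06), with no overlap between 568 RPM at most in culture and 714 at least in the embryo. Snrpf, also of the Sm ring, was at 457 and 482 RPM in d4c3, 459 and 450.0 in d4c5 and 416 and 425 in d4c7. The embryonic libraries held 656 and 634 RPM at E9.5, 621 and 597 in E12.5 males and 646 and 614 in E12.5 females. It differed by -0.49 ± 0.05 (limma adjusted p = 2.71e-06). Snrpf lies on chromosome 10, 93583029 to 93589658 of GRCm38.p6, and its end overlaps a gene on the opposite strand.

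The other Sm genes did not share this pattern. Snrpd2 differed by -0.40 with overlapping libraries and lost its call without E9.5, whereas Snrpd1, Snrpd3, Snrpe and Snrpg did not pass. Snrpb2, the B″ protein of the U2 snRNP, was higher in culture, with 183 and 196 RPM in d4c3, 228 and 202 in d4c5 and 216 and 187 in d4c7. The embryonic values were 155 and 156 RPM at E9.5, 142 and 139 in E12.5 males and 136 and 153 in E12.5 females. The difference was 0.46 ± 0.07 (limma adjusted p = 6.76e-05).

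Among the SF3b genes, Sf3b5, the smallest subunit, was at 135 and 130.4 RPM in d4c3, 152 and 146 in d4c5 and 168 and 152 in d4c7. In the embryo it was at 189 and 182 RPM at E9.5, 232 and 221 in E12.5 males and 244 and 197 in E12.5 females. It was lower in culture by 0.51 ± 0.07 on the log2 scale (limma adjusted p = 2.90e-05). Sf3a2 and Sf3b3 were lower too (-0.69 and -0.32), and Sf3b4 was higher (0.37), with overlapping libraries in all of them. For Sf3b4 the male E12.5 libraries lay within the culture range.

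The hnRNP genes that separated the sides were Hnrnpu, Hnrnpa3 and Hnrnpf. Hnrnpu, a scaffold protein of the nucleus that binds RNA and chromatin, was at 437 and 452 RPM in d4c3, 347 and 467 in d4c5 and 315 and 426 in d4c7. In the embryo it was at 482 and 489.7 RPM at E9.5, 606 and 581 in E12.5 males and 617 and 573 in E12.5 females (-0.46 ± 0.08, limma adjusted p = 3.64e-04). Hnrnpu was thus the lower one in culture, with its lowest values in the first libraries of d4c5 and d4c7. Hnrnpa3, a relative of Hnrnpa1, was at 649.6 and 583 RPM in d4c3, 648 and 629 in d4c5 and 686 and 604 in d4c7. The embryonic libraries held 579 and 564 RPM at E9.5, 457 and 464 in E12.5 males and 412 and 403 in E12.5 females (0.41 ± 0.05, limma adjusted p = 2.71e-05). Hnrnpf, which binds runs of G, was at 557 and 576 RPM in d4c3, 520.1 and 654 in d4c5 and 495 and 589 in d4c7. In the embryo it was at 476 and 483 RPM at E9.5, 470.1 and 479.7 in E12.5 males and 448 and 446 in E12.5 females (0.27 ± 0.07, limma adjusted p = 0.00343). The gap was narrow in each: 467 against 482 RPM for Hnrnpu, 583 against 579 for Hnrnpa3 and 495 against 483 for Hnrnpf. The last 300 bases of Hnrnpa3 have a copy of at least 95% identity in 26 other genes, mostly processed pseudogenes, and those of Hnrnpf in 9, so their values are uncertain. In all, 15 of the 53 members have such a copy or overlap another gene.

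Hnrnpd, U2af2, Hnrnpab, Hnrnpa2b1, Hnrnpm and Hnrpdl also passed on the higher side, with differences from 0.17 (Hnrpdl) to 0.56 (Hnrnpd). For Hnrnpd the E9.5 libraries, at 578 and 594 RPM, lay among those of culture, and the E12.5 libraries lay below. Hnrnpab and Hnrnpa2b1 show the same order, with E9.5 inside or above the culture range. The calls of Hnrnpm and Hnrpdl were lost under several alternatives, and Hnrnph1 passed on the lower side (-0.18), as did Hnrnpul1 (-1.19) and U2af1l4 (-0.49). Hnrnpul1 also entered the test through its E12.5 values, and its call was kept with no filter on low values.

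The rest of the splicing machinery was read from 8 lists of 162 other genes, with 159 rows in the table and 151 genes tested. Among these 151, 34 were higher and 23 lower in E12.5 males than at E9.5 (22.5% and 15.2%, beside 20.0% and 17.6% of all genes). In females 23 were higher and 29 lower (15.2% and 19.2%, beside 20.4% and 17.1%). Between the sexes 3 were higher in females and 5 lower (1.99% and 3.31%, beside 6.68% and 5.27%). In culture, 33 were higher and 38 lower than in the embryo (21.9% and 25.2%, beside 27.7% and 26.8%). From d4c3 to d4c7, 1 passed (0.662%, beside 2.75% of all genes), and from d4c3 to d4c5 none did (beside 0.0829%). Any difference among the groups was called for 87, or 57.6%, beside 63.8% of all genes.

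Zrsr2, the X-linked relative of U2af1 that reads the end of minor-class introns, was at 85.7 and 85.2 RPM at E9.5, 159.7 and 142 in E12.5 males and 241 and 261 in E12.5 females. It rose in both sexes (0.81 ± 0.12 and 1.54 ± 0.12) and was higher in females (0.73 ± 0.12, limma adjusted p = 0.00109). The 3 groups did not overlap. Zrsr1 is a retroposed copy of it, and reads shared by the pair were not examined. U2af1 itself, whose end also has near-identical copies, stayed between 105 and 127 RPM in these 6 libraries.

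Eftud2, a GTPase of the U5 snRNP, was at 187 and 181 RPM at E9.5, 407 and 375 in males and 358 and 331 in females (limma adjusted p = 1.37e-05 and 7.36e-05). Prpf19, a ubiquitin ligase of the active spliceosome, went from 96.7 and 117 RPM at E9.5 to 52.5 and 47.3 in males and 43.4 and 43.8 in females (limma adjusted p = 9.44e-04 and 3.11e-04). Prmt5, the enzyme that methylates Sm proteins before the ring is built, was at 71.0 and 66.0 RPM at E9.5, 131 and 123 in males and 91.3 and 85.7 in females, and passed in males (limma adjusted p = 6.88e-04). These genes moved in unlike directions within lists of 15, 30 and 17 tested genes.

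Dhx16, a helicase that acts at the activation of the spliceosome, was the listed gene called from d4c3 to d4c7. Its level was 201 and 230.2 RPM in d4c3, 336 and 297 in d4c5, 389.9 and 312 in d4c7, 76.5 and 78.8 at E9.5, 146 and 141 in E12.5 males and 152 and 139.8 in E12.5 females. Every culture library lay above every embryonic one. It rose by 0.69 ± 0.13 from d4c3 to d4c7 (limma adjusted p = 0.0109) and was higher in culture than in the embryo by 1.28 ± 0.07 (1.30e-08). Srrm2, a large scaffold of nuclear speckles, had the reverse difference of -1.32 ± 0.10 (limma adjusted p = 1.26e-07). Srrm2 was at 63.0 and 46.6 RPM in d4c3, 52.6 and 72.7 in d4c5 and 66.8 and 74.6 in d4c7. In the embryo it was at 107 and 102 RPM at E9.5, 181 and 183 in E12.5 males and 208 and 193 in E12.5 females.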

How the data were processed

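RNA of 12 libraries, 2 per group, was read at the 3′ end. The deposited table gives RPM, which the authors scaled to reads assigned to genes, per the values and the labels. The submitters' processing notes list TopHat 1.4.1, Cufflinks 2.2.0 and cutadapt 1.3 without their roles, and the build mm10. Of the values up to 20 reads, 81.8% to 87.0% were whole multiples of a library's step within 0.1 read, so reads were not recovered and no count test was run.

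Values were analysed as log2(RPM + 1). Genes with RPM of at least 5 in at least 2 of 12 libraries were tested, 10856 of 26218. A limma 3.58.1 model in R 4.3.3 held all libraries with a mean per group and a mean-variance trend, with 6 residual and 8.02 prior degrees of freedom. It was tested on simulated data. P-values were adjusted by Benjamini and Hochberg over all genes, and an adjusted p under 0.05 was called. Errors of log2 differences are standard errors.

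The members and lists were chosen with earlier results of these data known. Named per comparison were up to 8 called members with the largest change, provided that their groups did not overlap and 1 group averaged at least 20 RPM. With fewer than 4 called, the 4 largest differences were named, and of each other splicing list up to 3 called genes, not all of which are described. Hindgut and endoderm markers summed to 121 to 237 RPM over the libraries.

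Gene positions and promoters came from RefSeq (GRCm38.p6), and shared 3′ ends, searched in the last 300 bases with at least 95% identity over at least 150 bases, from GENCODE transcripts of the same build. Alternatives were the pseudocount (0.5 or 5), the filter (none or 20 RPM), median log ratio scaling, the libraries fitted, a replicate block and leaving out each library.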

Additional observations from a re-analysis of the deposited data

Results flagged for a closer look

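Sf3b4 differed between the sexes of E12.5. Females minus males gave -0.98 ± 0.10 on the log2 scale (limma adjusted p = 4.94e-05), which is also the difference of the changes from the shared E9.5 libraries and so no further test, and both female libraries lay below all 10 others. The call of the male rise from E9.5 was lost under some alternatives. The deposited table also holds spike-in RNAs (ERCC), which enter no comparison above. Their sum reached 16494 RPM in E12.5_M replicate 2, and ranged from 12107 to 16494 RPM at E12.5, from 628 to 1372 at E9.5 and from 59.6 to 72.7 in the 5 culture libraries with values.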

How the results depend on the processing

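Counts of called members are given here for each alternative that moved them by over 1.5 times. Shares of all genes called under the alternatives are not set beside them, so no move is known to be particular to the members. Between E12.5 females and males, 1 member passed, and 2 did with a pseudocount of 5, 3 with a filter at 20 RPM and 4 in a fit of the 4 libraries compared; the added genes were Hnrnpa2b1, Sf3a1 and Srsf5. Between E12.5 males and E9.5, 34 passed in a fit of only those libraries, against 22. With each library left out in turn, counts ran from 0 to 4 for d4c7 against d4c3, 0 to 0 for d4c5 against d4c3, 8 to 15 for males and 15 to 17 for females against E9.5, 1 to 1 between the sexes, 24 to 33 for culture against embryo and 26 to 39 for any difference. The labels do not say that a replicate number marks anything shared. The correlation of replicate differences between groups was 0.455 for d4c5 and d4c7 (0.692 over the members). It was 0.116 and 0.131 for d4c3 with them (0.070 and 0.350 over the members). For all other pairs it was -0.043 to 0.029, a hint from the data that numbers in culture may share something. Over the members, those other pairs ran from -0.371 to 0.289, so 0.350 did not stand apart in size. With the replicate block, 2 members passed between the sexes, 24 in males, 25 in females, 29 in culture against embryo, 33 for any difference and none in the culture comparisons. In a replicate block fit of the 6 culture libraries alone, chosen after the data were seen, none passed either, and 5 members from d4c3 to d4c7 and 0 from d4c3 to d4c5 had an unadjusted p under 0.05. Hnrnpul1, d4c7 minus d4c3, was 0.38 without d4c7 replicate 1, where its value is 0 RPM, and -1.72 without d4c7 replicate 2. Of the other checks on single named genes, 451 kept direction and side of the threshold, 9 lost the call and 5 gained it. Calls that held under every alternative were 7 of 22 in males, 13 of 24 in females, 1 of 1 between the sexes and 23 of 28 in culture against embryo. Depth limits Hnrnpul1 and Srsf12, whose culture values were near the 3-read limit of 0.517 to 1.36 RPM.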
